A study of Mus musculus with 20 samples.

Results

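The genes described here are 10 mouse genes of the hypoxia response and of glycolysis (Hif1a, Egln3, Ndrg1, Bnip3, Slc2a1, Hk2, Pgk1, Ldha, Pfkfb3 and Eno1), taken by name and followed through every probe that the platform annotation assigns to them. Of 45281 probes on the array, 15 carried the symbol of 8 of these genes, and 7 of the 15 passed a detection filter and stood for 6 genes: Hif1a, Egln3, Slc2a1, Ndrg1, Pgk1 and Ldha. The single probes of Bnip3 and Pfkfb3 did not pass it, and Hk2 and Eno1 were not analysed here. RNA came from bone marrow-derived macrophages of C57BL/6 mice, grown from marrow for 6 days with 40 ng/ml M-CSF, a growth factor macrophages need, and was hybridised to 20 Illumina BeadChip arrays in 4 groups of 5. The groups were untreated cells, cells that took up cholesterol crystals for 3 h (200 ug for a set number of cells), cells kept in 10 mM hydroxypropyl-beta-cyclodextrin (a sugar ring that holds cholesterol in its core) for 6 h, and cells with 3 h of crystals followed by 6 h of cyclodextrin. Age is labelled 10 to 15 months for the untreated cells but 2 to 5 months for all treated cells, so age and treatment cannot be told apart wherever untreated cells enter. The study's text mentions mice lacking liver X receptors, but the labels give no genotype, and they do not state how long crystal-only or untreated cells stood beside the 6 h of cyclodextrin.

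Hypoxia-inducible factor 1 is a pair of proteins. Its alpha subunit, encoded by Hif1a, is made all the time and destroyed in the presence of oxygen after prolyl hydroxylases such as Egln3 mark it, so its activity is set mainly at the protein and less at the mRNA. When it accumulates, it binds the core letters of the hypoxia response element in front of glucose transporters, glycolytic enzymes and other targets, several of which limit the response again. Macrophages raise the same genes when bacterial products activate them, also with oxygen present.

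Slc2a1 and Ndrg1 were the 2 genes of the 6 tested that rose after crystals, and both also rose after crystals followed by cyclodextrin. Hif1a, Egln3, Pgk1 and Ldha did not pass the test in either comparison. Calls are two-sided limma tests adjusted by the Benjamini-Hochberg method across the 10018 genes tested (called all genes below), at 0.05. By that rule 17.5% of all genes were called between crystals and untreated cells and 20.2% between both treatments and untreated cells, and the count of 2 in 6 is to be read against those shares. In cyclodextrin against untreated cells, both treatments against crystals, both against cyclodextrin and cyclodextrin against crystals, 0 of the 6 genes passed without a block, beside 1.13%, 0%, 9.2% and 15% of all genes. In RNA from whole cultures, fewer cells of a type and less RNA per cell cannot be told apart. The labels do not say whether replicates were separate animals or cultures, and the p-values rest on the spread among arrays, which may be technical.

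The letters in front of 3 of these genes are shown because one gene rose (Slc2a1) and 2 did not pass the test (Pgk1 and Ldha), while all 3 hold the core letters that hypoxia-inducible factor binds. Each line gives the 250 bases before the transcription start on the plus strand, from RefSeq on build GRCm38.p6, and capitals mark ACGTG or GCGTG read on either strand. Slc2a1 is at chr4:119108495-119108744, Pgk1 at chrX:106186850-106187099, and Ldha, which has a second window, at chr7:46845554-46845803.
Slc2a1: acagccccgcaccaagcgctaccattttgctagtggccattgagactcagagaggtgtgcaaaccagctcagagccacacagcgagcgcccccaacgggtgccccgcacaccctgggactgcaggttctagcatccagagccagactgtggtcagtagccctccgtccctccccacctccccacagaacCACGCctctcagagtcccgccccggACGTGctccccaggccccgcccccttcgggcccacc
Pgk1: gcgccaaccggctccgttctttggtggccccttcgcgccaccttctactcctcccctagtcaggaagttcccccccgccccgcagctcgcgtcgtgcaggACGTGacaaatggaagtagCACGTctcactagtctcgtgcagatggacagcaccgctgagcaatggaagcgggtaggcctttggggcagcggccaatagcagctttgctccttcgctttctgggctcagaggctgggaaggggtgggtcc
Ldha: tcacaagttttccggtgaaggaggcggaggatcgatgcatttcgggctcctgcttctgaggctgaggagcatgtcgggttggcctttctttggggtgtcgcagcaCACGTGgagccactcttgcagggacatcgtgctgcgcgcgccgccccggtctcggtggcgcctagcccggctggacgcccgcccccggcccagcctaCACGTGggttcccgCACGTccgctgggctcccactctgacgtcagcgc
Across the whole table window of 300 bases, which adds 50 bases after the start, Slc2a1 held 1 ACGTG and 1 GCGTG, whose first bases lay at -36 and -61 from the start. Pgk1 held 2 ACGTG, and the Ldha window held 5 ACGTG and 2 GCGTG, where a palindrome (CACGTG) counts once on each strand. By symbol, 9 of the 10 genes matched 13 windows, and all 13 held at least 1 of the motifs, with 1 to 7 matches. Some genes have more than 1 window, and the Eno1 windows starting at 150236947 and 150236974 overlap and share their matches. Among all 32851 windows of the same length, 19.6% held ACGTG, 32.4% held GCGTG and 43.8% held either. The 10 genes were taken as members of this pathway, so these shares are no test of them. Ndrg1 is named only. A match is a run of letters and not a bound site, and it stood in the windows of Slc2a1, which rose, and of Pgk1 and Ldha, which did not pass the test.

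A few facts of the arrays bear on all values. The median bead signal of an array was 86.6 to 128, with 33.9 to 39.5% of its probes detected. Levels are log2 units of background-corrected, quantile-normalized bead signal. Precision is limited by how many arrays there are. The arrays lie on 6 chips, and chips 1 and 5 (12 arrays, 3 per group) and chips 2, 3, 4 and 6 (8 arrays, 2 per group) form 2 batches. Xist, the RNA of the inactive X chromosome, lay at 10.9971 to 11.51 on the first batch and 4.26 to 4.45 on the second, and the Y-linked Eif2s3y at 4.19 to 4.54 and 10.17 to 10.90, so chip batch and the sex pattern of the cells cannot be told apart. The authors' values also show 5 sets of 4 arrays, 1 array of each group, which were used as a block in an alternative fit. Of 8 macrophage markers, the 7 with a named probe were detected on all 20 arrays. Their summed linear signal was 47328.8 to 58176.1 in untreated cells, 39984.7 to 47885.5 in crystals, 51694.5 to 58392.7 in cyclodextrin and 41653 to 48799.3 in both treatments. Of other cells' markers, S100a8, Col1a1 and Dcn were detected on all 20 arrays, while Ngp, Cd3e and Alas2 were detected on none. The summed signal of 5 fibroblast markers ranged from 568 to 1897 in untreated cells, 617 to 2162 in crystals, 609 to 1553 in cyclodextrin and 522 to 2066 in both, and that of 6 neutrophil markers from 160 to 223, 162 to 198, 170 to 201 and 171 to 241. That of 4 lymphocyte markers ranged from 92.6 to 145, 89 to 126, 88.2 to 133 and 85.3 to 113, and that of 2 erythroid markers from 37.3 to 44.3, 37.7 to 42.5, 39.4 to 45.9 and 37.6 to 42.7. The macrophage sum was lower in both groups with crystals than in untreated cells, with a slight overlap, and Slc2a1 and Ndrg1 were higher there. Ndrg1 also averaged 8.32 in cyclodextrin alone against 7.76 in untreated cells, but did not pass the limma test without a block (adjusted p = 0.216). The macrophage sum was not lower in cyclodextrin. There Mertk (7.47 against 8.91) and Fcgr1 (8.78 against 9.99) had lower means than in untreated cells, and the other named markers did not. Of the 7 markers, Mertk alone had a higher mean in crystals than in untreated cells (9.65 against 8.91). The others were lower, among them Cd14 (11.99 against 13.13). The sum is linear, so bright markers such as Lyz2, Adgre1 and Cd14 (14.64, 13.18 and 13.13 in untreated cells) weigh most. The part of the macrophage sum in the results was not tested.

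Slc2a1 encodes GLUT1, the transporter through which most macrophage glucose enters, and lies at chr4:119108745-119137330 (GRCm38.p6), read by 1 probe (ILMN_1258159). Its log2 level in untreated cells was 9.96, 9.50, 9.65, 9.83 and 9.92 on replicates 1 to 5, and after crystals 10.43, 10.73, 10.13, 10.22 and 11.08. After cyclodextrin it was 10.46, 10.00, 10.06, 9.21 and 10.55, and after both treatments 11.12, 10.36, 10.54, 10.71 and 10.71. Every array with crystals, alone or before cyclodextrin, lay above every untreated array, whereas the cyclodextrin arrays spread from below the untreated range into the range of the crystal arrays. Group means were 9.77 ± 0.19 (SD, n = 5) in untreated cells, 10.06 ± 0.53 in cyclodextrin, 10.52 ± 0.39 in crystals and 10.69 ± 0.28 in both. The rise after crystals was 1.68-fold (log2 0.75, SE 0.22, adjusted p = 0.023) and after both treatments 1.89-fold (log2 0.92, SE 0.22, adjusted p = 0.00568), higher in 5 of 5 sets each time. Neighbours in the order of means did not pass the test: cyclodextrin minus untreated was 0.28 (95% interval -0.18 to 0.74), cyclodextrin minus crystals -0.46 (-0.92 to -0.0028) and both minus crystals 0.17 (-0.29 to 0.63).
With the chip as a block the differences were 0.71 for crystals and 0.73 for both treatments, and their adjusted p of 0.0563 and 0.0816 no longer passed. The set block gave 0.0103 and 0.00229. Within chips 1 and 5 the differences from untreated cells were 0.84 and 0.77, and within chips 2, 3, 4 and 6 they were 0.60 and 1.13. The crystal call was also lost without crystal replicate 2 (adjusted p = 0.0532), crystal replicate 5 (0.0784) or untreated replicate 2 (0.0543).

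**Figure D1:**
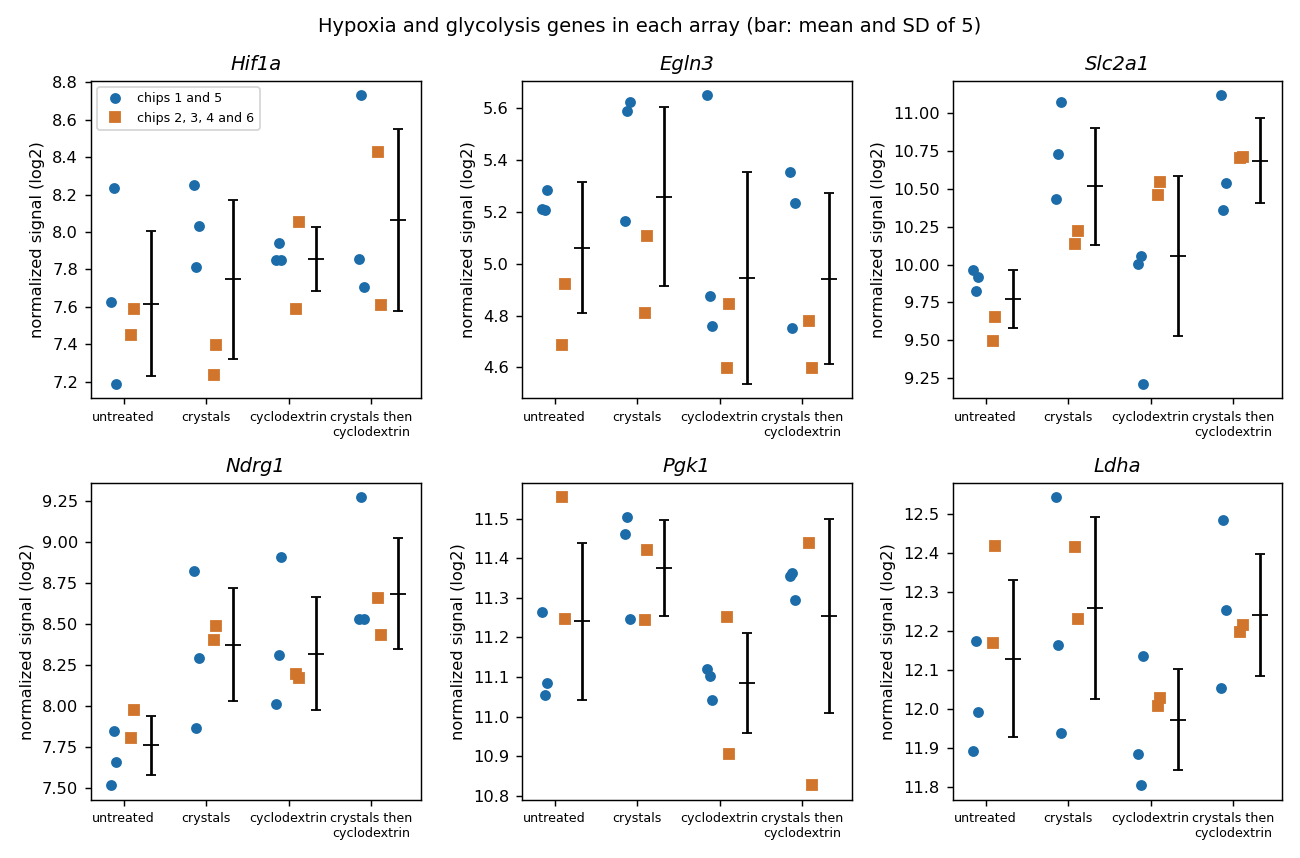
Normalized signal (log2) of the main probe of the 6 tested genes on all 20 arrays, by group; circles are arrays on chips 1 and 5, squares arrays on chips 2, 3, 4 and 6, and bars the mean and SD of 5. For Slc2a1 all 10 arrays with crystals lie above the 5 untreated arrays, and the cyclodextrin arrays split by chip batch.

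The difference in Slc2a1 between cyclodextrin and crystals was not the same in the 2 chip batches. The 3 cyclodextrin arrays on chips 1 and 5 read 10.00, 10.06 and 9.21, and the 2 on the other chips 10.46 and 10.55. Against crystals, the log2 difference was -0.99 within the first batch, with an adjusted p of 0.0175. In the second batch it was 0.33, with an adjusted p of 0.203. The difference between batches was -1.32 (adjusted p over all genes = 0.0423). Against untreated cells it was -0.15 in the first batch (adjusted p = 0.993) and 0.93 in the second (0.00375), a difference that did not pass its test (adjusted p = 0.263). Slc2a1 in both treatments minus cyclodextrin was 0.63 (SE 0.22, adjusted p = 0.0815), higher in 5 of 5 sets. It missed with the chip block (0.60, adjusted p = 0.399) and was 0.92 in the first batch and 0.20 in the second, where the 1 pair sharing a chip differed by 0.16. In the first batch all arrays of both treatments lie on chip 1 and all cyclodextrin arrays on chip 5, so chip and treatment cannot be told apart there. It passed with the set block (adjusted p = 0.0364), the replicate block (0.0488), on chips 1 and 5 alone (0.0335), and without cyclodextrin replicate 1 (0.0497) or 5 (0.035).

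Ndrg1 encodes a cytoplasmic protein induced by hypoxia, metal chelation and differentiation, and lies at chr15:66929318-66969641. It has 2 probes past the filter, and the brighter one (ILMN_2646166) stands for the gene. Untreated arrays read 7.52, 7.81, 7.98, 7.85 and 7.66, and crystal arrays 8.82, 7.87, 8.41, 8.49 and 8.29. Cyclodextrin arrays read 8.20, 8.01, 8.31, 8.91 and 8.17, and arrays of both treatments 8.53, 9.27, 8.53, 8.66 and 8.43. The lowest crystal array lay inside the untreated range, and all 10 arrays with cyclodextrin lay above it. Means were 7.76 ± 0.18 (SD, n = 5) in untreated cells, 8.32 ± 0.35 in cyclodextrin, 8.38 ± 0.34 in crystals and 8.69 ± 0.34 in both. Ndrg1 rose 1.53-fold after crystals (log2 0.61, SE 0.19, adjusted p = 0.029) and 1.90-fold after both treatments (log2 0.92, SE 0.19, adjusted p = 0.00178). After cyclodextrin alone the difference was 0.56 (adjusted p = 0.216), which passed with the set block (adjusted p = 0.0391, where 4.12% of all genes were called). Cyclodextrin and crystals differed by -0.06 (95% interval -0.45 to 0.34), and both treatments minus crystals was 0.31 (-0.08 to 0.70), positive in 5 of 5 sets.
The second probe (ILMN_1250195) gave 0.70 (SE 0.15, adjusted p over all detected probes = 0.00308) for crystals, 0.45 for cyclodextrin (0.213) and 0.81 for both (0.000873). With the set block over all detected probes, its cyclodextrin difference did not pass (adjusted p = 0.078), while that of the brighter probe did (0.0454). The rise after both treatments passed with every left-out array and with the chip block (adjusted p = 0.0137). The first batch gave 1.10 and the second 0.65. The rise after crystals was less firm: the adjusted p was 0.0585 with the chip block, 0.00452 with the set block and 0.0556 without the 3 arrays of lowest signal. It was also lost without untreated replicate 1 (0.0737) or 5 (0.065) or crystal replicate 1 (0.0932) or 4 (0.0576). The first batch alone gave 0.65 (adjusted p = 0.129) and the second 0.55 (0.0793), so the rise passed in neither. Scale normalization also ended the call after crystals (0.70, adjusted p = 0.151).

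**Figure D2:**
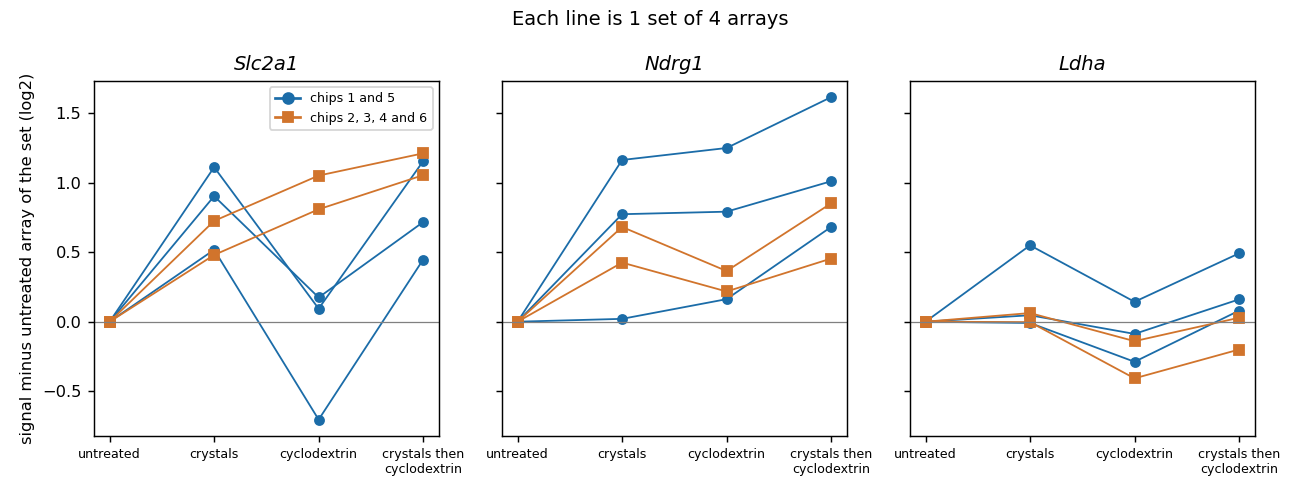
Signal of Slc2a1, Ndrg1 and Ldha minus the untreated array of the same set (log2), each line 1 set of 4 arrays; circles are the 3 sets on chips 1 and 5, squares the 2 sets on the other chips. Slc2a1 is above 0 after crystals in 5 of 5 sets and parts by chip batch after cyclodextrin, Ndrg1 is above 0 in all 3 treated groups, and Ldha lies lower after cyclodextrin than after crystals in 5 of 5 sets.

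Hif1a, the oxygen-regulated alpha subunit, lies at chr12:73901324-73947554. It has 3 probes, of which 2 were detected on 0 of 20 arrays and 1 (ILMN_2852034) on all. Untreated arrays read 7.62, 7.45, 7.59, 8.24 and 7.19, and crystal arrays 8.25, 7.82, 7.24, 7.39 and 8.03. Cyclodextrin arrays read 7.59, 7.85, 7.94, 7.85 and 8.05, and arrays of both treatments 7.86, 8.73, 7.71, 8.42 and 7.61. All 4 groups overlapped. Means were 7.62, 7.75, 7.86 and 8.07, with SDs of 0.38 to 0.49 except 0.17 in cyclodextrin. The widest difference, both treatments minus untreated, was 0.45 (95% interval -0.03 to 0.93, adjusted p = 0.187), and crystals minus untreated was 0.13 (-0.35 to 0.61). These intervals include no difference and, for both treatments, a rise as large as that of Slc2a1. mRNA arrays do not measure the protein.

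Egln3, a prolyl hydroxylase that hypoxia itself induces and that marks the alpha subunit for destruction, lies at chr12:54178981-54203874. Of its 3 probes 1 (ILMN_2605819) passed the filter, close to background, and 2 were detected on 0 arrays. Untreated arrays read 5.21, 4.68, 4.92, 5.21 and 5.28 and crystal arrays 5.16, 5.59, 4.81, 5.11 and 5.62, detected on 5 of 5 each. Cyclodextrin arrays read 4.60, 5.65, 4.88, 4.76 and 4.84 and arrays of both treatments 5.35, 4.75, 5.23, 4.78 and 4.60, detected on 4 of 5 each. All groups overlapped, and no comparison passed. Both treatments minus crystals was -0.32 (95% interval -0.74 to 0.11, adjusted p = 0.772), negative in 5 of 5 sets. The constant offset added to the background-corrected signal shrinks differences at such a low signal.

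The glycolytic enzymes among the tested genes did not pass the test after any treatment without a block. Pgk1 encodes phosphoglycerate kinase, an ATP-forming step of glycolysis, and lies at chrX:106187100-106203699; of its 3 probes, 1 (ILMN_2651886) was detected, on all arrays, and 2 on 0. Untreated arrays read 11.27, 11.55, 11.25, 11.06 and 11.08 and crystal arrays 11.46, 11.50, 11.25, 11.42 and 11.25. Cyclodextrin arrays read 11.25, 11.12, 11.10, 11.04 and 10.91 and arrays of both treatments 11.36, 11.36, 11.29, 11.44 and 10.83. The lowest value is an array of both treatments, and all groups overlapped. Crystals minus untreated was 0.13 (95% interval -0.12 to 0.39) and both minus untreated 0.01 (-0.24 to 0.27), so the upper bounds lay below the 0.75 of Slc2a1. Cyclodextrin minus crystals, the widest difference, was -0.29 (-0.55 to -0.04, adjusted p = 0.126).
Ldha encodes the lactate dehydrogenase subunit that turns pyruvate to lactate, and lies at chr7:46842274-46855627 with 1 probe (ILMN_1257965). Untreated arrays read 11.89, 12.17, 12.42, 12.17 and 11.99 and crystal arrays 12.54, 12.16, 12.41, 12.23 and 11.94. Cyclodextrin arrays read 12.01, 11.89, 11.81, 12.14 and 12.03 and arrays of both treatments 12.05, 12.48, 12.25, 12.20 and 12.22. Cyclodextrin arrays were the lowest group but overlapped each of the others. Crystals minus untreated was 0.13 (95% interval -0.13 to 0.39) and both minus untreated 0.11 (-0.15 to 0.37). Cyclodextrin minus crystals was -0.29 (-0.54 to -0.03, adjusted p = 0.139), lower in 5 of 5 sets. With the set block Ldha was called lower (adjusted p = 0.039), beside 24% of all genes called in that comparison and 15% without a block. With the chip as a block the difference was -0.20 (adjusted p = 0.475). On chip 5, with 1 crystal and 3 cyclodextrin arrays, it was 0.0029, and on chip 3, with 1 array of each, -0.22. Both treatments minus cyclodextrin was 0.27 (0.01 to 0.53, adjusted p = 0.203, and 0.0616 with the set block), positive in 5 of 5 sets. With the chip block it was 0.14 (adjusted p = 0.825). In the first batch all cyclodextrin arrays lie on chip 5 and all arrays of both treatments on chip 1, so the sets there also compare chips.

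**Figure D3:**
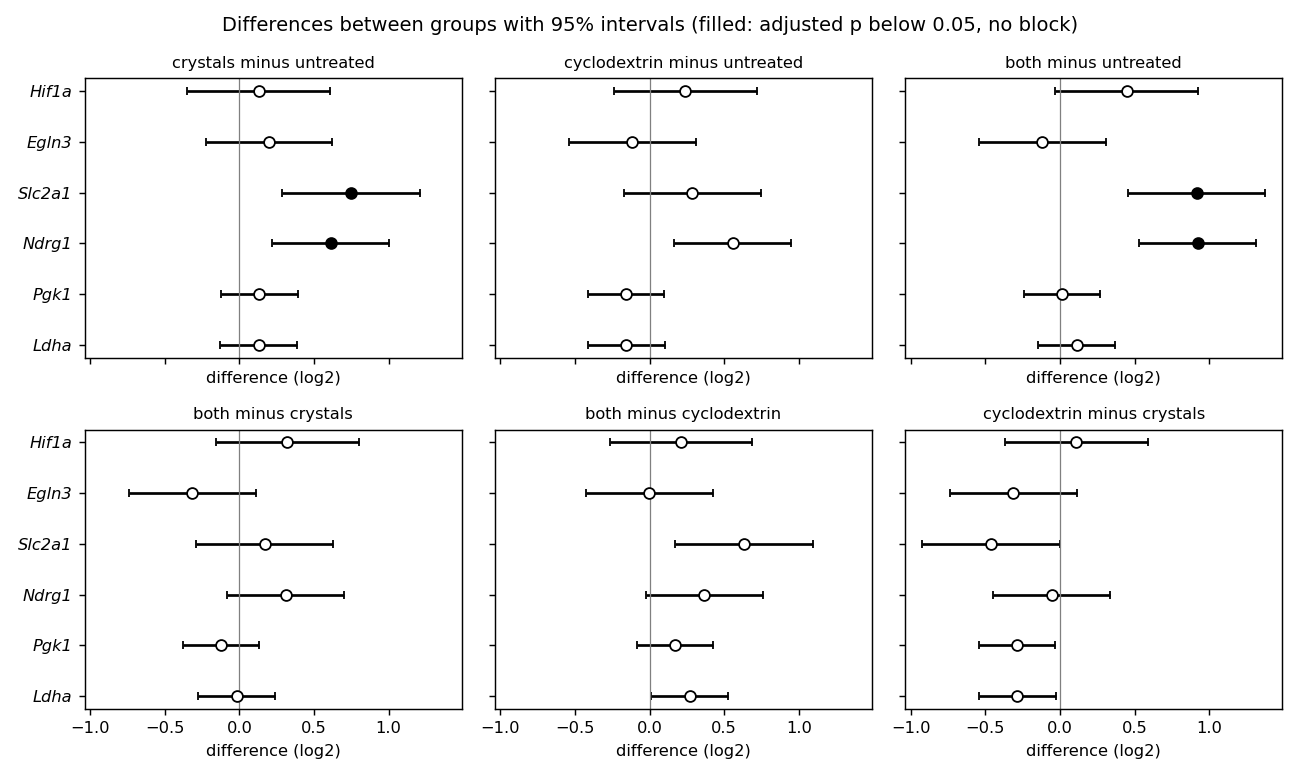
Difference between group means (log2, horizontal axis) with its 95% interval for the 6 tested genes in 6 comparisons; both means crystals then cyclodextrin, and filled points have an adjusted p below 0.05 without a block. Filled points are Slc2a1 and Ndrg1 in crystals minus untreated (0.75 and 0.61) and in both minus untreated (0.92 and 0.92).

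The remaining probes stayed near background. Bnip3 encodes a mitochondrial protein that starts the removal of mitochondria in hypoxia, and its probe was detected on 0 of 20 arrays, at 4.21 to 4.43. Pfkfb3 makes the main activator of phosphofructokinase, and its probe was detected on 4 arrays (1 untreated, 2 of crystals, 0 of cyclodextrin and 1 of both). Its highest level, 5.21, was on a crystal array. No fold is given for either. Such probes did not measure the genes above background, which does not say that they were silent.

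With the set as a block 27.7% of all genes were called after crystals, 31.8% after both treatments, 18.5% between both and cyclodextrin and 1.8% between both and crystals. The genes called were then Slc2a1 and Ndrg1 in the first and second, Slc2a1 in the third and 0 of 6 in the fourth. An interaction asks whether cyclodextrin acted differently with crystals present. Of the 6 genes 0 passed, without or with the set block, beside 0.0399% and 0.14% of all genes (4 and 14 genes). The estimates ranged from -0.25 for Ndrg1 (95% interval -0.80 to 0.31) to 0.14 for Ldha (-0.23 to 0.50). Between both treatments and crystals 0 of 10018 genes passed in limma without a block, 815 had an unadjusted p below 0.05 and 180 passed with the set block. In that comparison the differences of the 6 genes ranged from -0.32 (Egln3) to 0.32 (Hif1a).

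Other genes of glycolysis moved in both directions after crystals. Of 25 listed, 20 were tested, and 3 rose and 2 fell (17.5% of all genes were called), with a median difference of 0.07 against -0.02 for all genes. Eno2, an enolase of a late glycolytic step, went from 7.38 to 9.31 (log2 1.93, SE 0.20, adjusted p = 4.27e-06). Hk3, a hexokinase, rose by 1.24 (SE 0.30, adjusted p = 0.00715), and Pgam1, the phosphoglycerate mutase between Pgk1 and enolase, by 1.04 (SE 0.21, adjusted p = 0.00163). Pfkfb4, a relative of Pfkfb3, fell by 1.19 (SE 0.20, adjusted p = 0.000422), and Pfkm, a phosphofructokinase subunit, fell by 0.67 (SE 0.15, adjusted p = 0.00454). With the set block 5 were higher and 4 lower, beside 27.7% of all genes. On chips 2, 3, 4 and 6 alone Pgam1 (0.61, adjusted p = 0.173), Pfkfb4 (-0.68, 0.0628) and Pfkm (-0.44, 0.18) did not pass, and scale normalization ended the call of Pfkm (0.0985). The rise of Eno2 was 2.42 in the first chip batch and 1.19 in the second (test of the difference, adjusted p = 0.031).
After both treatments 5 of the 20 were higher and 3 lower than in untreated cells, beside 20.2% of all genes called (median 0.12, all genes -0.03). Slc2a6, a glucose transporter of the same family as Slc2a1, rose by 1.83 (SE 0.37, adjusted p = 0.00158), Eno2 by 1.75 (SE 0.20) and Hk3 by 1.20 (SE 0.30). Pfkfb4 fell by 1.05 (SE 0.20), Pfkm fell by 0.57 (SE 0.15) and Pfkfb2, another enzyme of the same regulator, fell by 0.47 (SE 0.15, adjusted p = 0.0305). The fall of Pfkfb2 was lost without any 1 of untreated replicates 1, 2, 3 and 5 or replicates 2 and 4 of both treatments (adjusted p up to 0.0855), and with the chip block (0.152), which also ended that of Pfkm (0.127). Scale normalization ended the calls of Pfkfb2 (0.26) and Pfkm (0.155). On chips 1 and 5 alone Pfkfb2 did not pass (0.358), and on chips 2, 3, 4 and 6 alone Pfkm did not (0.118). In cyclodextrin alone 0 of 20 passed, beside 1.13% of all genes. With the set block Slc2a6 was higher by 1.38 (adjusted p = 0.0215), beside 4.12% of all genes called.
Between both treatments and cyclodextrin, 3 of the 20 were higher and 1 lower, beside 9.2% of all genes (median 0.10, all genes -0.02): Eno2 by 1.38, Hk3 by 1.35 and Pgam1 by 0.89, while Pfkfb4 fell by 0.87. With the chip block the adjusted p of Pgam1 was 0.395 and that of Pfkfb4 0.27, and on chips 2, 3, 4 and 6 alone Pgam1 was at 0.28 (0.618) and Pfkfb4 at -0.58 (0.126). Scale normalization also ended the call of Pgam1 (0.145). Between both treatments and crystals 0 of 20 passed with either fit, beside 0% of all genes without a block and 1.8% with the set block. Between cyclodextrin and crystals 2 were higher and 3 lower in cyclodextrin, beside 15% of all genes (median -0.05, all genes 0.01), with Pfkfb4 at 1.02 and Pfkm at 0.49 against Eno2 at -1.56, Hk3 at -1.38 and Pgam1 at -0.99. The call of Pfkm was lost with the chip block (adjusted p = 0.204), with scale normalization (0.306), and without any 1 of crystal replicates 2 and 5 or cyclodextrin replicates 2, 3 and 4 (up to 0.108). On chips 2, 3, 4 and 6 alone Pfkm was at 0.10 (0.762), Pfkfb4 at 0.49 (0.1) and Pgam1 at -0.57 (0.124).

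Slc2a6 also split by chip batch after cyclodextrin. Against crystals it was -0.19 in the first batch (adjusted p = 0.714) and 1.85 in the second (0.000524), a difference of -2.04 (adjusted p = 0.00783). Against untreated cells the values were 0.75 and 2.33, with an adjusted p of 0.0882 for the difference. Slc2a3, the transporter GLUT3, ran the other way, at 0.67 on chips 1 and 5 and -0.18 on the others (difference 0.85, adjusted p = 0.0472). For Slc2a1 and Slc2a6 the difference was thus more positive in the second batch. What sets the batches apart was not tested.

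Other targets of hypoxia-inducible factor were also divided. Of 22 listed, 17 were tested, and after crystals 3 rose and 2 fell, beside 17.5% of all genes called (median 0.07). Bhlhe40, a transcriptional repressor, rose from 8.08 to 10.8 (log2 2.69, SE 0.31, adjusted p = 1.33e-05). Hilpda, a lipid droplet protein that slows fat breakdown, rose by 0.86 (SE 0.15, adjusted p = 0.00048), and Rora, a nuclear receptor, by 0.66 (SE 0.13, adjusted p = 0.00149). Pdk1, the kinase that keeps pyruvate out of the mitochondrial cycle and which hypoxia raises, fell by 0.81 (SE 0.19, adjusted p = 0.00702). Mxi1, an antagonist of Myc, fell by 1.12 (SE 0.37, adjusted p = 0.0402). The fall of Mxi1 was lost without any 1 of untreated replicates 1, 4 and 5 or crystal replicates 1, 3, 4 and 5 (adjusted p up to 0.123). On chips 2, 3, 4 and 6 alone Hilpda (0.38, adjusted p = 0.316), Rora (0.44, 0.246), Pdk1 (-0.52, 0.335) and Mxi1 (-0.44, 0.436) did not pass, and scale normalization ended the calls of Rora (0.0758), Pdk1 (0.0866) and Mxi1 (0.0528).
After both treatments 2 of the 17 were higher and 2 lower, beside 20.2% of all genes: Bhlhe40 by 2.12 (SE 0.31) and Hilpda by 0.77 (SE 0.15), against Mxi1, which fell by 1.51 (SE 0.37), and Pdk1, which fell by 0.76 (SE 0.19). The rise of Bhlhe40 was 2.88 in the first chip batch and 0.98 in the second (difference 1.90, adjusted p = 0.0208). Between both treatments and cyclodextrin 3 were higher and 0 lower, beside 9.2% of all genes, namely Bhlhe40 by 1.76, Vegfa by 1.32 and Hilpda by 0.80. The chip block ended the calls of Bhlhe40 (adjusted p = 0.11) and Hilpda (0.0981) there. Scale normalization also ended the call of Hilpda there (0.0981), and those of Hilpda (0.0558) and Pdk1 (0.0994) against untreated cells. On chips 2, 3, 4 and 6 alone Hilpda was at 0.31 against untreated cells (adjusted p = 0.253) and 0.44 against cyclodextrin (0.258), and Pdk1 at -0.74 against untreated cells (0.0679). The medians were 0.07 and 0.04, against -0.03 and -0.02 for all genes. Between cyclodextrin and crystals 1 was higher (Pdk1, 0.59, adjusted p = 0.0474) and 4 lower in cyclodextrin, beside 15% of all genes, among them Vegfa at -2.59, Bhlhe40 at -2.34 and Hilpda at -0.89. The call of Pdk1 was lost with scale normalization (adjusted p = 0.284), no detection filter (0.0817), all detected probes (0.0557) and the replicate block (0.0722), and on chips 2, 3, 4 and 6 alone it was at 0.11 (0.842). It was also lost without any 1 of untreated replicates 1, 3 and 5, crystal replicates 1, 2, 4 and 5, cyclodextrin replicates 2, 3 and 4, or replicates 2, 3 and 5 of both treatments (up to 0.132). Hilpda on chips 2, 3, 4 and 6 alone was at -0.51 (0.0976).

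Vegfa, which encodes the main growth factor of blood vessels and is a standard target of the pathway, was lowest after cyclodextrin. Its brightest probe read 9.45, 8.46, 8.49, 9.88 and 9.24 in untreated cells and 10.11, 10.51, 9.14, 9.48 and 10.50 after crystals. It read 7.34, 8.01, 7.43, 6.67 and 7.31 after cyclodextrin and 9.22, 8.60, 9.31, 8.16 and 8.07 after both. All 5 cyclodextrin arrays lay below all 15 others, and the other groups overlapped. It was 3.37-fold lower in cyclodextrin than in untreated cells (log2 -1.75, SE 0.33, adjusted p = 0.0119). Vegfa was the 1 called gene of the 17 in that comparison, beside 1.13% of all genes. The difference after crystals, 0.84 (SE 0.33, adjusted p = 0.092), was positive in 5 of 5 sets and passed with the set block (adjusted p = 0.0023). A second detected Vegfa probe (ILMN_3121255) rose after crystals without a block (0.91, SE 0.25, adjusted p over all detected probes = 0.0183) and was lower after cyclodextrin (-1.38, 0.00865). Both treatments minus crystals was -1.28 (adjusted p = 0.188), negative in 5 of 5 sets and called with the set block (0.00625). Rora was also called with that block (-0.52, 0.0386), which makes 2 of 17 lower and 0 higher, beside 1.8% of all genes. The call of Vegfa in both treatments against cyclodextrin (1.32, adjusted p = 0.0155) was lost without cyclodextrin replicate 4 (0.0512). Mxi1 was lower in cyclodextrin with the set block (-1.07, adjusted p = 0.0289).

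A further list held 11 genes of oxygen sensing, of hypoxia-inducible factor subunits and of related proteins, and 9 were tested. After crystals 0 rose and 1 fell, beside 17.5% of all genes called (median 0.09, all genes -0.02). That was Cited2, a protein that competes with the alpha subunit for its coactivators, which fell by 1.03 (SE 0.11, adjusted p = 6.95e-06). It fell by 0.79 after both treatments (SE 0.11, adjusted p = 0.000124) and was 1.01 lower on the log2 scale in both treatments than in cyclodextrin (difference -1.01, SE 0.11, adjusted p = 8.16e-06), each time the 1 called gene of 9, beside 20.2% and 9.2% of all genes. Cyclodextrin against crystals gave 1 higher, again Cited2 (1.25, adjusted p = 3.39e-07), and 0 lower, beside 15%. In cyclodextrin alone and in both treatments against crystals 0 of 9 passed, beside 1.13% and 0% of all genes. With the set block P4ha2, a collagen prolyl hydroxylase, was higher after crystals (0.49, adjusted p = 0.0071), beside 27.7% of all genes. With that block P4ha2 was also lower in cyclodextrin than in crystals (-0.59, 0.00198), beside 24% of all genes. It was higher in both treatments than in cyclodextrin (0.43, 0.0223), beside 18.5%. Hif1an, the asparagine hydroxylase that blocks the alpha subunit, was then lower after both (-0.33, 0.0199), beside 31.8%.

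**Figure D4:**
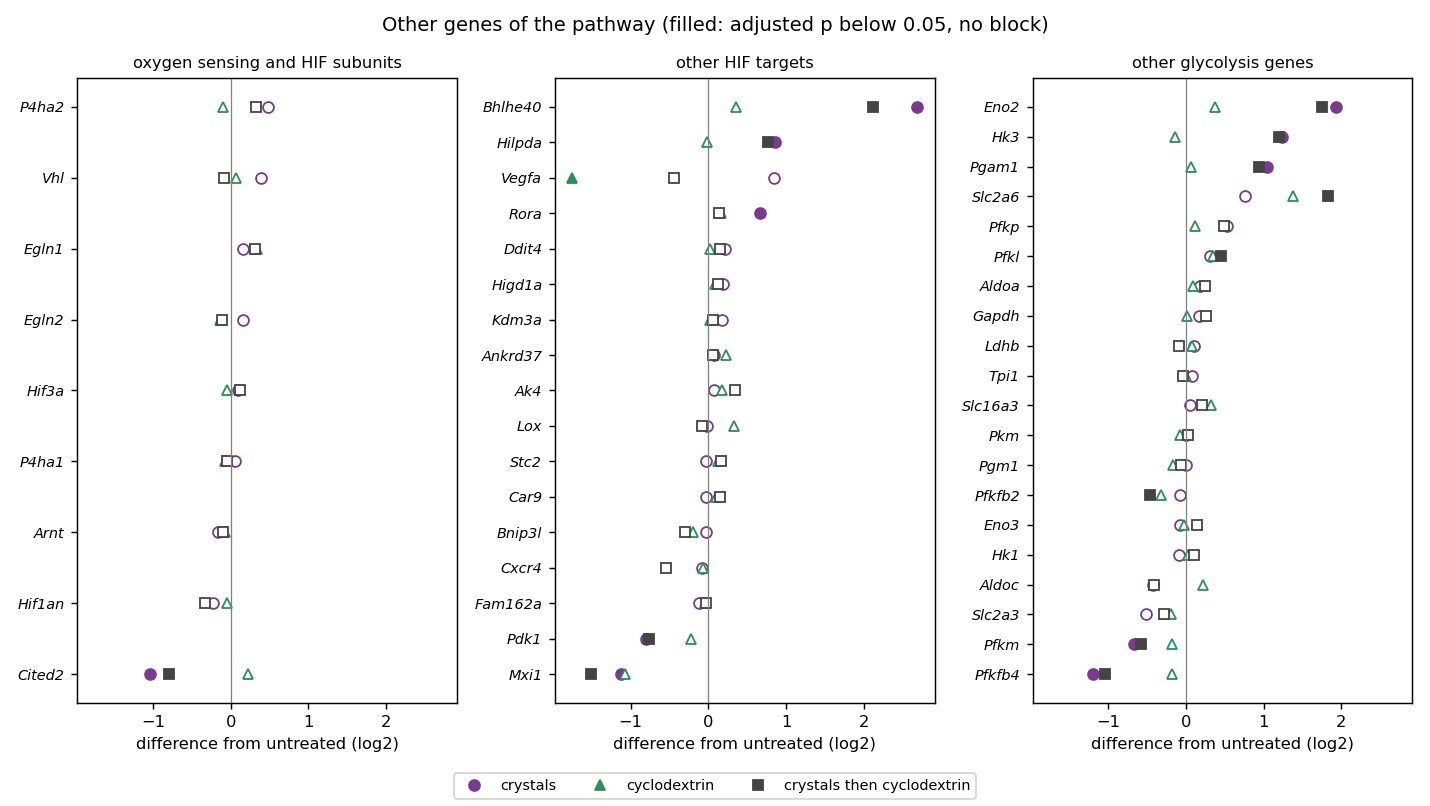
Difference from untreated cells (log2, horizontal axis) for every tested gene of 3 further lists, in crystals (circles), cyclodextrin (triangles) and crystals then cyclodextrin (squares); filled marks have an adjusted p below 0.05 without a block. Bhlhe40 (2.69) and Eno2 (1.93) stand furthest right after crystals, and Vegfa is the filled triangle at -1.75.

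Across arrays some pairs of the 6 genes changed the sign of their correlation between the chip batches, and others kept it. The pairs given are examples. Within chips 1 and 5 (12 arrays) the correlation of Slc2a1 and Ndrg1 was 0.10, and within the other chips (8 arrays) 0.78. Slc2a1 and Pgk1 gave 0.71 and -0.54, and Pgk1 and Ldha 0.54 and 0.17. Hif1a gave 0.66 and 0.34 with Ndrg1, and 0.16 and 0.55 with Slc2a1. Arrays share chips and normalization, so these are descriptions. The genes most like each by the lower of its 2 within-batch correlations were Lrrc8d for Slc2a1 (0.95 and 0.97), Smyd5 for Ndrg1 (0.93 and 0.89), Mex3c for Hif1a (0.86 and 0.84) and Stx1a for Egln3 (0.78 and 0.75). For Pgk1 it was Ftl1 (0.90 and 0.95) and for Ldha Atp13a2 (0.91 and 0.92). The next 2 were Agfg1 and Prelid3b for Slc2a1, Mid1ip1 and Slc38a7 for Ndrg1, Rasgef1b and Parp10 for Hif1a, Atp5md and Atg4b for Egln3, Lonrf3 and St13 for Pgk1, and Gsto1 and Tpra1 for Ldha, with within-batch correlations of 0.74 to 0.97.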

How the data were processed

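Bone marrow-derived macrophage RNA was hybridised to 20 arrays, grouped by the labels. Per the file headers, one deposited file holds, per probe, the linear average bead signal (intensity, not background-subtracted) and its detection p-value. The authors' deposited value table is in log2 units. It could be recomputed, to an SD of 0.00902, as quantile-normalized log2 signal in which each of 5 sets of 4 arrays has the same mean. The sources used here do not state these steps.

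All values start from that signal. Background correction and quantile normalization used neqc (offset 16) of limma 3.58.1, run under R 4.3.3. The filter asked for a detection p under 0.05 on 5 or more arrays, which 18348 probes met, and the brightest probe with 1 gene symbol stood for each of 10018 genes. Of all probes, 34885 had 1 symbol, 18 several and 10378 none. The offset shrinks differences of dim probes. A linear model of the 4 groups without a block (lmFit, eBayes, two-sided) was the main test, adjusted by Benjamini-Hochberg. Alternatives were other normalizations, filters, probe sets, blocks, chip batches and left-out arrays.

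The genes and lists were chosen with earlier results of these data known. Named were all 10 genes with each probe, Vegfa, the 3 most alike genes of each, and of each further list up to 3 called higher and 3 called lower per comparison. The set block names genes where the main fit calls none; a few others it calls are named where they change a count. Promoter windows were searched for ACGTG and GCGTG on both strands.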

Additional observations from a re-analysis of the deposited data

Results flagged for a closer look

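Of 32 groups of 5 arrays tested with Dixon's ratio (critical value 0.71), 3 held an array far from the other 4, and chance flags about 1 in 20. Egln3 in cyclodextrin had replicate 2 at 5.65 against 4.60 to 4.88 (ratio 0.736). Ndrg1 in both treatments had replicate 2 at 9.27 against 8.43 to 8.66 (ratio 0.731). Pgk1 in both treatments had replicate 5 at 10.83 against 11.29 to 11.44 (ratio 0.763).

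The chip batches (chips 1 and 5 against the others) differed, by a test over all genes, in 1 of 42 comparisons of the 6 genes. In the further lists they differed in 8 of 322. The share of all genes that differed by that test is not given, so these counts do not say whether the genes were unusual. Sex pattern and chip batch coincide. The difference, first batch minus second, was -1.32 for Slc2a1, -2.04 for Slc2a6, 0.85 for Slc2a3, -1.12 for Eno2 and 0.68 for Ldhb in cyclodextrin against crystals. It was 1.22 for Eno2 in crystals against untreated and 1.90 for Bhlhe40 in both treatments against untreated. In both treatments against crystals it was -1.96 for Slc2a6 and 0.89 for Ldhb, whose probe lies close to background.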

How the results depend on the processing

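Of 1344 recomputed differences of the 6 genes, 1316 kept their direction where called and their side of the threshold, 15 lost a call and 13 gained one. No call changed sign. The number called after crystals was 2 (calls among all genes in brackets, here 1750 of 10018). With scale normalization it was 1 (654 of 10018). On chips 1 and 5 alone (2111 of 9267) and on chips 2, 3, 4 and 6 alone (303 of 8959) it was 1. It was also 1 without the 3 arrays of lowest signal (1747 of 9814), and 0 with the chip as a block (1678 of 10018). Without single arrays it was 1 to 2, with 1230 to 1691 of all genes called where it was 1. After both treatments it was 2 (2025 of 10018), also without any single array. It was 1 with the chip block (1149 of 10018) and on chips 1 and 5 alone (1778 of 9267). After cyclodextrin it was 0 (113 of 10018). It was 1 with the set block (413 of 10018) and with the authors' table and the set block (407 of 10018). On chips 2, 3, 4 and 6 alone it was also 1 (Slc2a1, 762 of 8959). Between both treatments and cyclodextrin it was 0 (922 of 10018), and 2 with the authors' table and the set block (1970 of 10018). It was 1 with the set block (1858 of 10018), the replicate block (823 of 10018) and chips 1 and 5 alone (1235 of 9267). Without single arrays it was 0 to 1, and 1 without cyclodextrin replicate 1 (954 of 9941) or 5 (1112 of 9949). Between cyclodextrin and crystals it was 0 (1505 of 10018). It was 1 with the set block (2406 of 10018) and with the authors' table and the set block (2506 of 10018). On chips 1 and 5 alone it was also 1 (1817 of 9267). For both treatments against crystals and the interaction it was 0 in every alternative run. Groups share replicate numbers, but deviations of same-numbered arrays correlated from -0.546 to 0.648, so the numbers did not pair the samples, and the replicate block changed no other count of the 6 genes (1 in both against cyclodextrin, Slc2a1, adjusted p = 0.0488). Of 2144 differences of the further lists, 87 lost a call, 74 gained one and none changed sign. The causes were not tested. Signal near background limits Egln3, Bnip3 and Pfkfb3.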
